A study of Mus musculus with 12 samples.

Results

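The alpha-globin gene Hba-a1, 7 genes of heme synthesis (Alas1, Alas2, Alad, Uros, Urod, Cpox and Fech) and the heme-degrading gene Hmox1 were followed in sorted cells of mouse liver cancer organoids with and without 5-fluorouracil (5-FU). These 9 genes were taken from the 47069 genes of the count table. Hba-a1 was chosen because its reads rose in the 5-FU-treated libraries, so its values are given as a description with no test. The other 8 were chosen by pathway, to see whether the heme genes moved along with it. RNA was sequenced from 12 libraries in 4 groups of 3. All groups came from C57BL/6 organoid cells labelled with the genotype LGR5-DTRGFP+, in which the diphtheria toxin receptor and GFP report the stem cell marker gene Lgr5. The organoids were grown from liver tumors that diethylnitrosamine had induced, and viable CD45-negative cells were sorted into LGR5+ and LGR5- cells by GFP, either untreated or after 5-FU, a pyrimidine analog that blocks thymidylate synthesis. The labels gave no dose or duration of 5-FU for these libraries, although the study's methods describe one for its organoid cultures in general, and named no separate cultures or animals for the replicates, so p-values measure the spread between these libraries, which may be technical.

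Heme is built from glycine and succinyl-CoA by a chain of enzymes that starts in the mitochondrion, runs through the cytosol and ends in the mitochondrion, where iron is inserted. Every cell makes heme for cytochromes, and the liver makes much of it for its P450 enzymes, through the housekeeping first enzyme ALAS1. Red cell precursors use ALAS2 in its place and pair the heme with alpha- and beta-globin chains to form hemoglobin.

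The libraries held 13750591 to 19323514 counted reads. Mitochondrial genes took 6.93% and 6.44% of the reads in the untreated and treated LGR5- replicate 3 libraries, against 1.47% to 3.08% in the other 10. The closest pair of libraries crossed the sort label: untreated LGR5- replicate 1 and untreated LGR5+ replicate 1 differed by a chi-square per degree of freedom of 4.42, against 15.1 to 124 within groups. Lgr5 itself, the gene behind the sort, stood at 419 to 649 reads in untreated LGR5- libraries and at 380 to 476 in untreated LGR5+ libraries, and at 312 to 490 and 465 to 487 after 5-FU. Its level did not separate the sorted populations, with edgeR adjusted p = 1 in untreated and 0.842 in treated cells. Of 8 hepatocyte markers, 5 had at most 3 reads in every library, among them Hnf4a, whereas the biliary markers Krt7, Krt19 and Epcam each had at least 6169 reads in every library.

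Mouse alpha-globin is encoded by Hba-a1 and a near-identical copy, Hba-a2. In the GENCODE M21 annotation of GRCm38, Hba-a1 (ENSMUSG00000069919) lies on the plus strand at chr11:32283511-32284465 and Hba-a2 (ENSMUSG00000069917) at chr11:32296489-32297298. Their coding sequences of 429 bases differ at 1 base in exon 3, C381T, counted from the A of the start codon with the Hba-a1 base first. The 29 coding bases around that position are shown because they are what separates reads of the copies, with the differing base in capitals (chr11:32284329-32284357 and chr11:32297146-32297174, GENCODE transcripts).
Hba-a1: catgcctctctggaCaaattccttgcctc
Hba-a2: catgcctctctggaTaaattccttgcctc
Of the 550 stretches of 150 bases (the read length) in the Hba-a1 transcript, 427 (77.6%) also occur in Hba-a2 or just upstream of it, and the other 123 all span the differing base. The table listed Hba-a2 at 0 reads in 11 libraries and 1 read in the other, treated LGR5- replicate 1. How reads that match both copies were handled was not given in the sources used here, so the Hba-a1 reads cannot be assigned to 1 copy with certainty.

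Hba-a1 was almost silent in untreated organoid cells and abundant after 5-FU, in both sorted populations. The untreated LGR5- libraries held 3, 10 and 4 reads and the untreated LGR5+ libraries 8, 3 and 8 reads. After 5-FU the counts were 736, 358 and 682 reads in LGR5- cells and 657, 609 and 893 reads in LGR5+ cells. Every treated library lay above every untreated library, with no value in between, and the lowest treated library was LGR5- replicate 2. In CPM, the reads scaled to the normalized library total, the group means went from 0.318 ± 0.201 to 38.1 ± 15.2 (SD, n = 3) in LGR5- cells and from 0.375 ± 0.165 to 40.9 ± 9.96 (SD, n = 3) in LGR5+ cells. The fitted change was 116-fold in LGR5- cells and 106-fold in LGR5+ cells, or 6.86 and 6.73 on the log2 scale. By the size of the increase Hba-a1 ranked 9th and 10th of 16157 genes tested, and it entered that table only through its treated libraries. Between LGR5+ and LGR5- cells its log2 difference was 0.23 untreated and 0.10 after 5-FU, and the libraries of the populations overlapped in both states. Without both LGR5- replicate 3 libraries its log2 change with 5-FU in LGR5- cells was 6.40. These are bulk libraries, in which a change in the share of cells that carry a transcript cannot be told apart from a change in the RNA per cell.

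**Figure D1:**
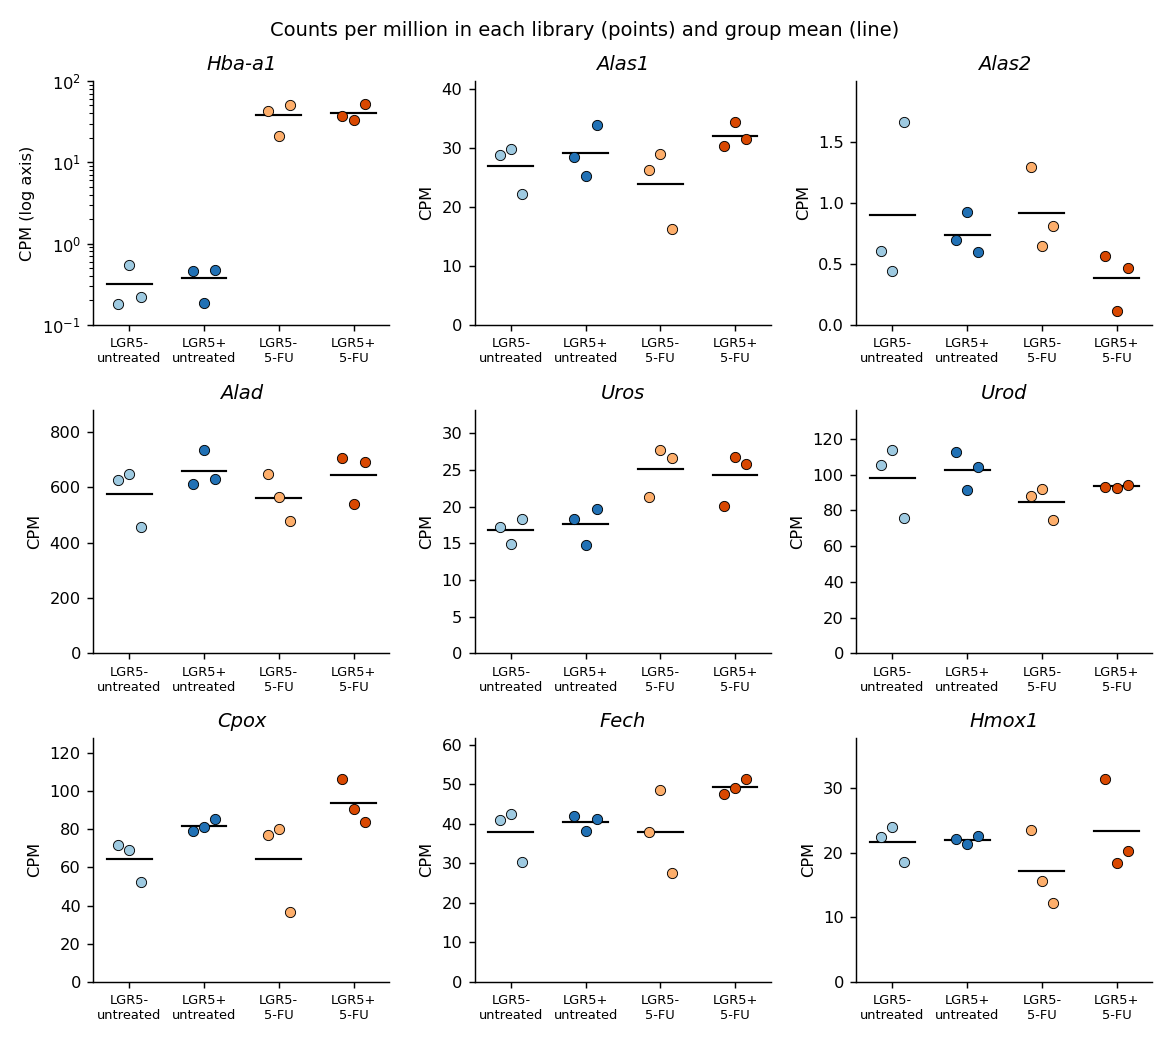
CPM of the 9 genes in each library (points; lines are group means of 3 libraries), with a log axis for Hba-a1 and linear axes from 0 for the others. Hba-a1 moved from below 1 CPM to 21.0 to 52.2 CPM, while most heme genes spread over the same range with and without 5-FU.

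None of the 8 chosen heme genes changed by a comparable amount. ALAS1, the rate-limiting first enzyme outside red cells, was encoded by a gene whose treated and untreated libraries overlapped in both populations. Alas1 stood at 28.7, 29.7 and 22.2 CPM in untreated and 26.2, 28.9 and 16.2 CPM in treated LGR5- cells. In LGR5+ cells it was at 28.4, 25.2 and 33.8 CPM untreated and 30.2, 34.4 and 31.4 CPM treated. The lowest library was treated LGR5- replicate 3, and the changes on the log2 scale were -0.17 (95% interval -0.63 to 0.28) and 0.14 (-0.32 to 0.59) in the respective populations. The upper bound for Alas1 in LGR5+ cells, 0.59, stood beside 6.73 for Hba-a1 on the same scale. A GENCODE antisense gene, 4930500F10Rik, shares 465 exonic bases with Alas1, and the strand setting of the counting was not given.

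Alas2, the erythroid first enzyme on chromosome X (chrX:150547375-150570638, plus strand), was at the edge of detection, and no change with 5-FU was called. It had 10, 8 and 30 reads in untreated and 22, 11 and 11 reads in treated LGR5- libraries. The LGR5+ libraries held 12, 15 and 10 reads untreated and 10, 2 and 8 reads treated. Groups overlapped in LGR5- cells, with a log2 change of 0.02 (95% interval -1.28 to 1.32). That value rested on untreated LGR5- replicate 3, without which it was 0.81, and was 0.89 without both LGR5- replicate 3 libraries and -0.32 without treated LGR5- replicate 1, with no call in any of these fits. In LGR5+ cells each treated library was below each untreated one in CPM, with a log2 change of -0.95 (-2.35 to 0.46) and an edgeR adjusted p of 0.372. At these counts a smaller change was not detectable. Alas2 shares 311 exonic bases with Apex2 on the other strand.

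Alad, whose product condenses aminolevulinate into porphobilinogen, was the most abundant of the heme genes and showed no called change. Its CPM was 629, 649 and 457 in untreated and 647, 565 and 477 in treated LGR5- cells. LGR5+ cells had 611, 735 and 631 CPM untreated and 706, 541 and 691 CPM treated. All groups overlapped, and the log2 changes were -0.04 (SE 0.21) in LGR5- and -0.03 (SE 0.21) in LGR5+ cells. With 6501 to 12563 reads per library this is the best counted of the 9 genes.

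Uros, which closes the linear tetrapyrrole into uroporphyrinogen III, was the chosen heme gene that rose. It was at 17.2, 14.9 and 18.3 CPM in untreated and 21.3, 27.7 and 26.6 CPM in treated LGR5- libraries. The untreated LGR5+ libraries had 18.3, 14.8 and 19.7 CPM and the treated ones 20.1, 26.8 and 25.8 CPM. Treated libraries lay above untreated ones in both populations, by narrow margins. The log2 change was 0.58 in LGR5- cells (SE 0.19, edgeR adjusted p = 0.0457). In LGR5+ cells it was 0.46 (SE 0.18, edgeR adjusted p = 0.105) and missed the threshold of 0.05. The call in LGR5- cells held in 7 of 15 fits. It was lost without untreated LGR5- replicate 1 or 2 (edgeR adjusted p = 0.108 and 0.159) or treated LGR5- replicate 2 or 3 (0.143 and 0.0838), while the log2 change stayed at 0.50 to 0.69 whichever library was left out. Uros spans chr7:133686243-133710072 on the minus strand and overlaps Bccip, with which it shares 0 exonic bases.

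Urod, the next cytosolic enzyme, which decarboxylates uroporphyrinogen, showed no called change. Its levels were 105, 114 and 75.7 CPM untreated and 88.3, 91.7 and 74.5 CPM treated in LGR5- cells. In LGR5+ cells they were 112, 91.4 and 104 CPM untreated and 93.0, 92.7 and 94.4 CPM treated. The 3 treated LGR5+ libraries lay within 2 CPM of each other, inside the lower end of the untreated range. The log2 changes were -0.21 (SE 0.18) and -0.14 (SE 0.18).

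Ppox, which oxidizes protoporphyrinogen and is not one of the chosen genes, had log2 changes of -0.37 (edgeR adjusted p = 0.235) and -0.36 (edgeR adjusted p = 0.238). It shares 791 exonic bases with B4galt3.

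No change was called at the late mitochondrial steps. Cpox, which makes protoporphyrinogen, was at 71.9, 69.1 and 52.3 CPM untreated and 76.8, 80.3 and 36.6 CPM treated in LGR5- cells. It was at 78.9, 81.2 and 85.5 CPM untreated and 107, 90.8 and 84.0 CPM treated in LGR5+ cells. Treated LGR5- replicate 3 was the lowest of the 12, and the log2 changes were 0.00 (SE 0.25) and 0.20 (SE 0.25). Fech, the ferrochelatase that inserts iron, had 41.1, 42.5 and 30.3 CPM untreated and 37.8, 48.7 and 27.6 CPM treated in LGR5- cells. In LGR5+ cells the Fech values were 42.1, 38.2 and 41.2 CPM and 47.7, 49.0 and 51.4 CPM, so the treated libraries were all higher there. That difference, a log2 change of 0.29 (SE 0.20), had an edgeR adjusted p of 0.374. In LGR5- cells Fech changed by 0.00 (SE 0.20) on the log2 scale.

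Hmox1, whose product opens the heme ring and which cells commonly induce under oxidative stress or excess heme, did not pass the test. It stood at 22.4, 24.0 and 18.7 CPM untreated and 23.6, 15.7 and 12.3 CPM treated in LGR5- cells. In LGR5+ cells it was at 22.2, 21.3 and 22.6 CPM untreated and 31.5, 18.5 and 20.3 CPM treated. In LGR5+ cells the treated libraries spread to either side of the untreated ones, with replicate 1 the highest of all 12, and in LGR5- cells they lay within or below the untreated range. The log2 changes were -0.33 (95% interval -0.86 to 0.19) and 0.09 (-0.43 to 0.61). Among the other breakdown genes, Blvrb, a biliverdin reductase that also reduces flavins, fell in LGR5+ cells from 141, 180 and 167 CPM to 118, 68.6 and 88.9 CPM. Its log2 change there was -0.83 (SE 0.23, edgeR adjusted p = 0.0210), against -0.38 (edgeR adjusted p = 0.287) in LGR5- cells. The Blvrb call was lost without untreated LGR5+ replicate 2 or 3 (edgeR adjusted p = 0.0782 and 0.0706) or treated LGR5+ replicate 2 or 3 (0.125 and 0.0867). Hmox2, the constitutive heme oxygenase, and Blvra were not called.

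**Figure D2:**
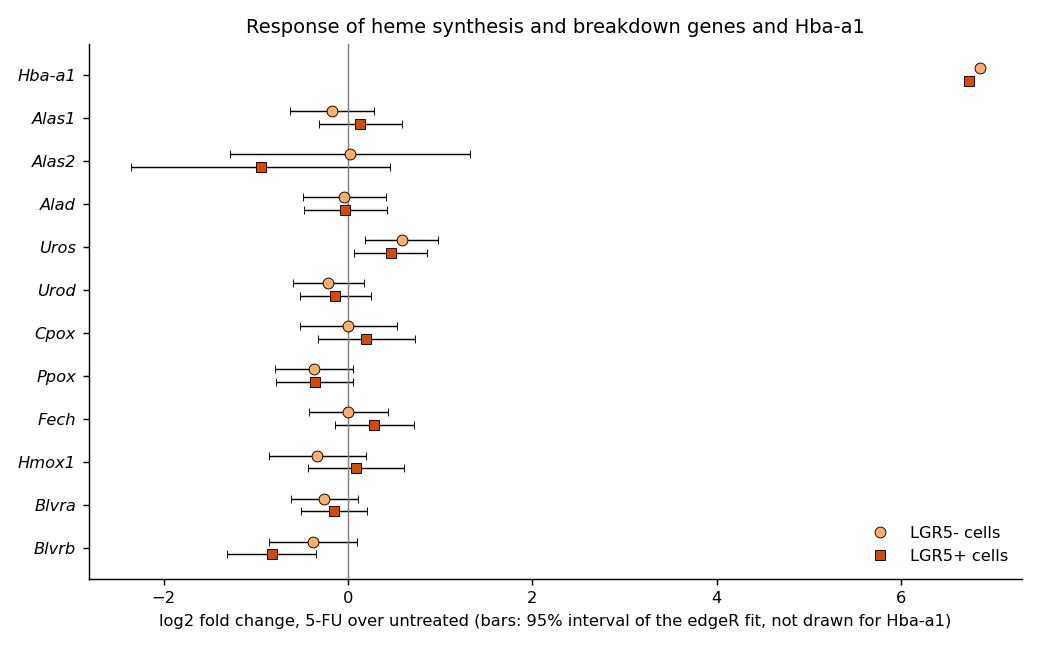
Log2 fold change of 5-FU over untreated for Hba-a1, 8 heme synthesis enzymes in pathway order and the breakdown genes Hmox1, Blvra and Blvrb, in LGR5- (circles) and LGR5+ cells (squares), with 95% intervals from the edgeR fit for all but Hba-a1, which was chosen for this change. Hba-a1 lies at 6.86 and 6.73, and the heme genes lie between -0.95 and 0.58.

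Counted together, none of the 8 chosen heme genes was called in LGR5+ cells, by edgeR or by DESeq2, and 1 had an unadjusted p under 0.05. Across all genes edgeR called 16.0% in that comparison (9.66% rose and 6.37% fell). In LGR5- cells Uros alone was called, by both tools and as higher, 1 of 8 against 15.4% of all genes (8.30% rose and 7.11% fell). The median log2 change of the 8 was 0.11 in LGR5+ and -0.02 in LGR5- cells, beside -0.02 and -0.05 over all genes tested. The study's methods name a limit of 1.5 on the log fold change and of 0.05 on p, with neither the log base nor an adjustment stated. Read as log2 and unadjusted p, none of the 8 met that rule, beside 7.23% of all genes in LGR5+ and 7.00% in LGR5- cells. Groups failed to overlap for Alas2, Uros and Fech in LGR5+ cells (3 of 8, against 42.3% of all genes) and for Uros in LGR5- cells (1 of 8, against 27.1%).

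No heme gene passed the test between the sorted populations. No member was called between LGR5+ and LGR5- cells by edgeR or by DESeq2, untreated or treated, where edgeR called 0% of all genes. At an unadjusted p under 0.05 there were 0 of 8 in untreated and 1 of 8 in treated cells, which was Cpox. After 5-FU, Cpox was 0.54 higher in LGR5+ cells on the log2 scale (95% interval 0.01 to 1.07, edgeR adjusted p = 0.381). Alas1, Alas2, Urod and Cpox did not overlap between the treated populations, 4 of 8 against 24.4% of all genes, and Cpox did not overlap between the untreated ones, 1 of 8 against 5.28%. The widest log2 difference there was that of Alas2, at -1.26 in LGR5+ against LGR5- cells (95% interval -2.65 to 0.13, edgeR adjusted p = 0.407), and the median of the 8 was 0.29. The 5-FU responses of the populations differed by log2 values from -0.97 for Alas2 to 0.42 for Hmox1, with 0 of 8 called and 0 of 8 at an unadjusted p under 0.05. For Hba-a1 the log2 responses differed by -0.12.

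Levels can be ranked between genes only per length, as CPM per kilobase of annotated exons. In untreated LGR5+ cells the order was Alad at 352 ± 35.5, Urod at 39.7 ± 4.11, Hmox1 at 12.6 ± 0.385 and Cpox at 12.3 ± 0.504 CPM per kb (SD, n = 3). Uros followed at 4.92 ± 0.699, Alas1 at 4.72 ± 0.706, Fech at 2.93 ± 0.146, Hba-a1 at 0.461 ± 0.203 and Alas2 at 0.307 ± 0.0694 CPM per kb. Hmox1 and Cpox, Uros and Alas1, and Hba-a1 and Alas2 did not differ beyond their spread. After 5-FU, Hba-a1 in LGR5+ cells stood at 50.3 ± 12.3 CPM per kb, second to Alad at 345 ± 48.8 and above Urod at 36.0 ± 0.350, with no overlap between their libraries in LGR5+ cells. Alas2 stayed last at 0.158 ± 0.0992 CPM per kb. The LGR5- cells gave 46.9 ± 18.7 CPM per kb for Hba-a1, overlapping Urod, and 0.381 ± 0.141 for Alas2 after treatment. The summed exon length of Fech, 13838 bases, includes alternative exons and lowers its value on this scale.

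Hemoglobin needs beta-globin chains as well, and their genes had almost no reads. Hbb-bt, Hbb-bh1, Hbb-bh2 and the embryonic alpha-type gene Hba-x had 0 reads in all 12 libraries, which allows up to 3 reads or 0.165 to 0.220 CPM by counting error. Hbb-bs had at most 1 read, Hbb-y at most 2, and Hbq1a and Hbq1b at most 2 in any library. These counts do not cover reads that match several genes, whose handling was not given. The non-erythroid members of the family were measured: Mb (myoglobin) rose in LGR5- cells from 1.33, 1.37 and 1.17 CPM to 8.06, 3.10 and 4.03 CPM. That is a log2 change of 1.97 (SE 0.51, edgeR adjusted p = 0.0170), lost without untreated replicate 1 or 2 or treated replicate 1 (0.0511, 0.0514 and 0.0716). In LGR5+ cells Mb had a log2 change of 1.15 (SE 0.48, edgeR adjusted p = 0.123), with overlapping groups. Without untreated LGR5+ replicate 2 that change was 1.87 and was called (edgeR adjusted p = 0.0272), in 1 of 14 fits. Cygb (cytoglobin) changed by -0.49 and -0.47, neither called.

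The summed level of red cell markers was lower after 5-FU, while Hba-a1 was higher. Of 15 erythroid markers counted, 14 were in the table. Slc4a1 (the band 3 anion exchanger), Tal1 and Car1 had 0 reads in all 12 libraries, and 7 of the 14 had at most 3 reads in every library. The erythroid regulators Klf1 and Gata1 had 1 to 14 and 0 to 7 reads. Summed over the list, the markers stood at 9.93 to 13.4 CPM in untreated LGR5- and 9.77 to 11.1 CPM in untreated LGR5+ libraries, and lower after 5-FU, at 3.16 to 5.59 and 3.86 to 6.02 CPM. The largest term of that sum in every library was Epor, the erythropoietin receptor gene, which fell in both populations (log2 -1.85 in LGR5- and -1.39 in LGR5+ cells, edgeR adjusted p = 0.000635 and 0.00333). Epor was the only marker called by edgeR of the 4 that could be tested, where 15.4% and 16.0% of all genes were called, and the other tested markers had log2 changes from -1.21 to 0.48 in LGR5- and -1.53 to -0.67 in LGR5+ cells.

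The summed level of leukocyte and macrophage markers was higher after 5-FU. It went from 41.1 to 43.6 CPM to 101 to 167 CPM in LGR5- libraries and from 57.3 to 92.7 CPM to 120 to 185 CPM in LGR5+ libraries. Of the 10 markers, 4 could be tested and 2 were called in each population, the lysosomal gene Cd68 (log2 1.95 and 2.06) and the lysozyme gene Lyz2 (log2 3.56 and 1.79, LGR5- first), where 15.4% and 16.0% of all genes were called. Ptprc, which encodes the CD45 that the sort removed, had 3 to 13 reads untreated and 5 to 36 treated, and Csf1r and Adgre1 had at most 11 reads in any library. Whether leukocytes were present, or had a part in the Hba-a1 result, was not tested. Of 6 biliary markers tested, edgeR called Krt7 and Krt19 higher in both populations and no other. Over all genes, 8.30% rose in LGR5- and 9.66% in LGR5+ cells. The biliary list had median log2 changes of 0.53 and 0.64, with lowest values of -0.50 and -0.13 (LGR5- first). The 8 hepatocyte markers summed to 10.5 to 22.4 CPM in untreated and 26.0 to 56.4 CPM in treated libraries, and of the 2 that could be tested the fetal liver gene Afp rose in both populations (log2 1.43 in LGR5- and 1.31 in LGR5+ cells, edgeR adjusted p = 0.0118 and 0.0177). The Afp call was lost in LGR5+ cells without untreated replicate 3 (0.0859), without treated replicate 1 (0.0707) or with no filter (0.0552), and in LGR5- cells without both replicate 3 libraries (0.107).

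**Figure D3:**
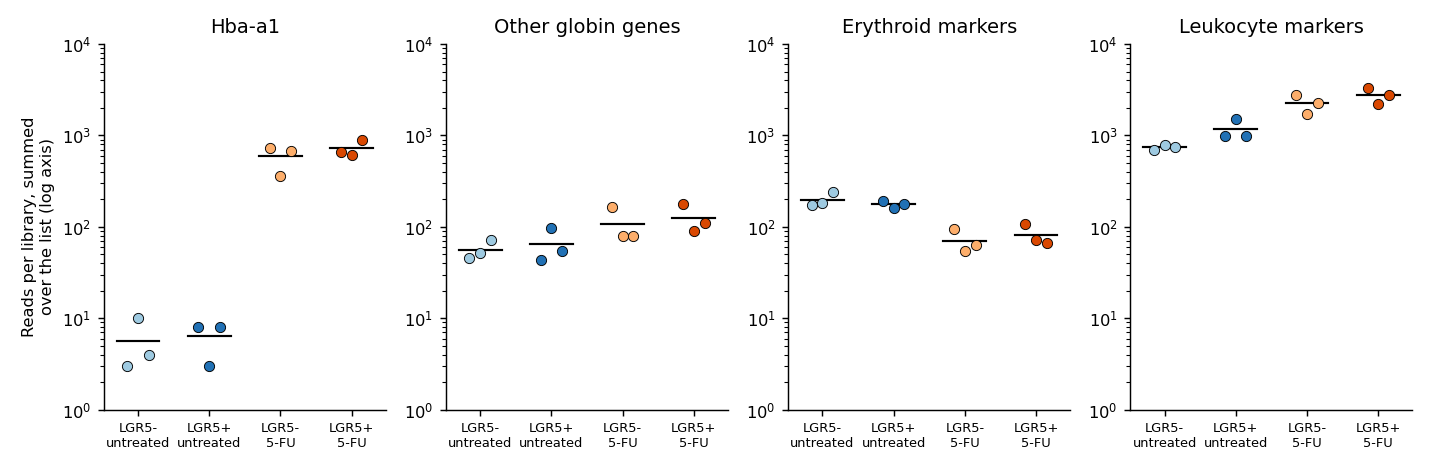
Reads per library (log axis) for Hba-a1 and summed over the 12 other globin genes, 14 erythroid markers and 10 leukocyte markers in the table; points are libraries and lines are group means. Hba-a1 rose to 358 to 893 reads while the summed erythroid markers were at 54 to 107 reads after 5-FU.

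The tested neighbors of Hba-a1 on chromosome 11 did not rise by a comparable amount. Of 5 tested, edgeR called 1 higher and 1 lower in each population. Over all genes, 15.4% were called in LGR5- and 16.0% in LGR5+ cells. Nprl3, whose introns hold the known alpha-globin enhancers, and Rhbdf1 and Mpg were not called in either population. Snrnp25, a minor spliceosome gene 78.1 kb upstream, fell in both (log2 -0.95 in LGR5- and -1.02 in LGR5+ cells, edgeR adjusted p = 0.00157 and 0.000723). Sh3pxd2b, which begins 64.3 kb downstream, rose by 0.93 in LGR5- cells (edgeR adjusted p = 0.00513). In LGR5+ cells Sh3pxd2b was 0.60 higher (edgeR adjusted p = 0.0477), a call that held in 4 of 14 fits and was lost whichever LGR5+ library was left out (0.0508 to 0.201). The globin genes nearest to Hba-a1, Hba-x, Hbq1b, Hba-a2 and Hbq1a, had too few reads to test.

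**Figure D4:**
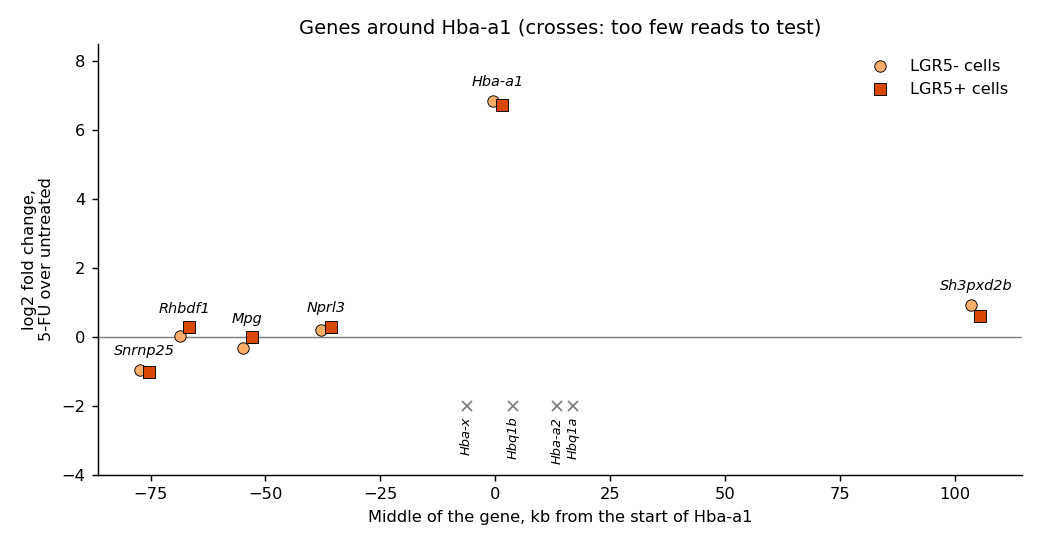
Log2 fold change of 5-FU over untreated for genes around Hba-a1, by the distance of the middle of each gene from the Hba-a1 start in kb; circles are LGR5- and squares LGR5+ cells, set slightly apart for legibility, and crosses mark genes with too few reads to test. Hba-a1 stands alone at 6.86 and 6.73, with its tested neighbors between -1.02 and 0.93.

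Of the genes for heme and iron transport and storage, Tfrc fell. Tfrc, the transferrin receptor that supplies iron for ferrochelatase, went from 91.6, 101 and 101 CPM to 43.6, 17.4 and 22.3 CPM in LGR5- cells. In LGR5+ cells it went from 93.7, 88.7 and 79.3 CPM to 34.0, 12 and 17.0 CPM. Untreated and treated libraries were far apart, with log2 changes of -1.81 (SE 0.36, edgeR adjusted p = 0.00375) and -2.06 (SE 0.36, edgeR adjusted p = 0.00139). By edgeR with TMM scaling of all libraries, Tfrc was the only called gene of 19 tested in that list in either population, below the 15.4% of all genes called in LGR5- and 16.0% in LGR5+ cells, and the list's median log2 change was -0.33 and -0.28. The ferritin genes Fth1 and Ftl1, which encode the iron storage shell, were not called by edgeR with TMM scaling of all libraries, with log2 changes of -0.79 and -0.66 for Fth1 and -0.33 and -0.34 for Ftl1 (LGR5- first). DESeq2 also called Fth1 (adjusted p = 0.0237) and the heme transporter gene Slc48a1 (log2 0.49, adjusted p = 0.0274) in LGR5- cells. Among the edgeR alternatives, library-size scaling called Fth1 in LGR5+ cells (-0.75, adjusted p = 0.0462), and Slc48a1 was called in LGR5- cells with that scaling (0.0499), with at least 10 reads in every library (0.0287), with the replicate block (0.0484) and without treated LGR5- replicate 3 (0.0403). Without both LGR5- replicate 3 libraries, the Tfrc change in LGR5- cells was -1.66 with an edgeR adjusted p of 0.0662, and Fth1 was called at -1.05 (edgeR adjusted p = 0.0127).

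Of 13 regulators of the pathway tested, 2 rose and 1 fell in LGR5+ cells, and 1 rose and 1 fell in LGR5- cells. With 16.0% and 15.4% of all genes called in the respective comparisons, these counts are near the background. Lonp1, a mitochondrial protease that degrades ALAS1, fell from 86.9 to 39.1 CPM in LGR5- and from 91.7 to 49.9 CPM in LGR5+ cells on average (edgeR adjusted p = 0.00416 and 0.0169). Tspo, a mitochondrial porphyrin-binding protein gene, rose by 0.76 and 0.90 (edgeR adjusted p = 0.0178 and 0.00628). Nfe2l2, which encodes the oxidative stress factor NRF2, rose by 0.96 in LGR5+ cells (edgeR adjusted p = 0.00557) and was 0.48 higher in LGR5- cells (0.141). Among 7 NRF2 target genes, Srxn1 was called in each population (log2 0.74 and 1.25, edgeR adjusted p = 0.0322 and 0.00130) and no other. In LGR5+ cells the Lonp1 call was lost without untreated replicate 3 or treated replicate 2 or 3 (0.0644, 0.0786 and 0.0898). In LGR5- cells the Tspo call held in 12 of 15 fits. It was lost without untreated replicate 1 (0.0560), with only the libraries compared and without both replicate 3 libraries. The Srxn1 call there held in 9 of 15 fits. It was lost in 5 of the 6 fits that left out 1 library (0.0541 to 0.125) and with only the libraries compared.

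Proteins that carry heme or feed it electrons were counted as possible users. Of 11 tested, the main edgeR fit called 3 higher in LGR5+ and 1 in LGR5- cells, where 9.66% and 8.30% of all genes rose. In other fits Cyb5a was called higher, in 5 of 15 in LGR5- and 1 of 14 in LGR5+ cells. Cyb5b was called lower in 3 of 14 fits in LGR5+ and 2 of 15 in LGR5- cells, and Cyc1 lower in 2 of 15 in LGR5- cells. Ptgs2, the inducible cyclooxygenase, rose in both (log2 3.38 in LGR5- and 3.13 in LGR5+ cells, edgeR adjusted p = 0.000848 and 0.000757). Ptgs1, the constitutive cyclooxygenase, rose by 0.99 in LGR5+ cells (edgeR adjusted p = 0.00560) and was 0.54 higher in LGR5- cells (0.104). Por, the electron donor of P450 enzymes and heme oxygenase, was 0.74 higher in LGR5+ cells (edgeR adjusted p = 0.0337), a call that was lost whichever LGR5+ library was left out (0.0521 to 0.121). The list had medians of 0.18 and 0.28, and the catalase, cytochrome c and succinate dehydrogenase genes in it were not called by edgeR with all libraries.

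**Figure D5:**
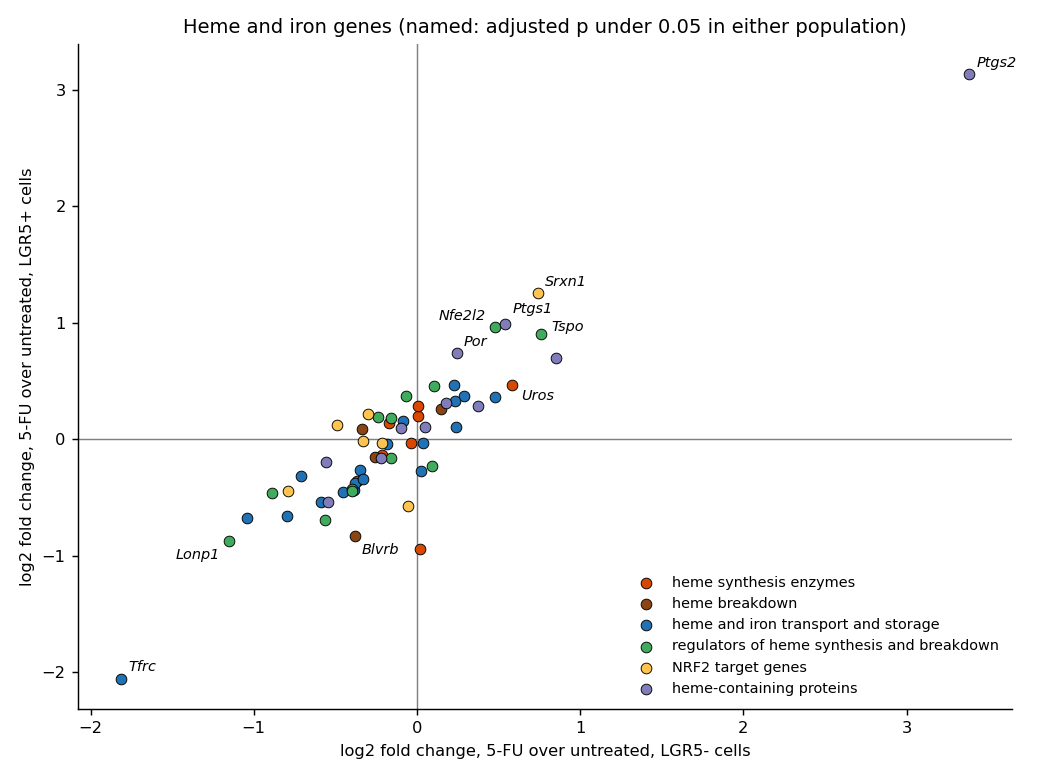
Log2 fold change of 5-FU over untreated in LGR5- (horizontal) against LGR5+ cells (vertical) for each tested gene of 6 heme and iron lists, with names for genes called in either population. Most points cluster near 0, with Tfrc at -1.81 and -2.06 and Ptgs2 at 3.38 and 3.13.

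Promoter sequence was looked up for the genes that share an erythroid history. RefSeq windows of GRCm38, from 250 bases before to 50 after each start, were found for 7 of the 9 genes and for Hba-a2 and Ppox. The stretch upstream of Hba-a2 (chr11:32296242-32296488, plus strand, 247 bases) is shown because the same 247 bases precede the RefSeq start of Hba-a1 without a difference, and the stretch upstream of Alas2 (chrX:150547167-150547374, plus strand, 208 bases) because it is the other red cell gene of the set. Capitals mark, on either strand, the GATA factor letters TGATAA or the variant AGATAA, the KLF letters CCACCC, the CCAAT box and the letters TATAAA.
Hba-a2: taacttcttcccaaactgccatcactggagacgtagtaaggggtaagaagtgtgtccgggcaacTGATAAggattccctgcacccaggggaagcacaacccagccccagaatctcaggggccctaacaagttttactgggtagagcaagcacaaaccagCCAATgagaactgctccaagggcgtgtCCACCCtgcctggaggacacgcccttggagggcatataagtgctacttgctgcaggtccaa
Alas2: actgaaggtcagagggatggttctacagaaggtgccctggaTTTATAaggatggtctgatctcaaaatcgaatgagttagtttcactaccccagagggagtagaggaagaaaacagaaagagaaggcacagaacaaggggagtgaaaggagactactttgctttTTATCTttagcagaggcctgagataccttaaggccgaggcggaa
Over the whole windows, TGATAA was found for Hba-a1, Hba-a2, Uros and Cpox and in 9.05% of all 32851 RefSeq windows, and AGATAA for Alas2 and Cpox and in 11.2%. CCACCC was found for Hba-a1, Hba-a2, Alas1 and Alas2 (31.5% of all windows) and CCAAT for Hba-a1, Hba-a2, Alad, Urod and Ppox (37.4%). TATAAA was found for Alas2 (13.6%), and TGACTCA, the AP-1 letters, for none of the 9 genes looked up (5.2%). The NRF2 core letters TGANNNNGC, which can overlap TGACTCA, were found for Uros and Cpox (41.3%). Such letter matches recur by their length alone and describe the windows only.

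The genes whose log2 CPM followed Hba-a1 most closely over the 12 libraries were Casp12, a caspase gene (Pearson r = 0.989), Tshr, the thyrotropin receptor gene (0.989), Fgd3 (0.986), Ces2g, a carboxylesterase gene (0.985), and Slc31a2, a copper transporter gene (0.983), of 16087 genes compared. The most opposed were the linker histone gene Hist1h1d (-0.974), Tcerg1l (-0.974), 2810429I04Rik (-0.974), 1700019D03Rik (-0.973) and Psph, the last enzyme gene of serine synthesis (-0.972). No heme enzyme was among them: Uros had r = 0.83 and ranked 1217th, Fech had 0.24, Cpox 0.06, Alas1 -0.05, Alad -0.06, Hmox1 -0.23, Alas2 -0.28, Urod -0.40 and Ppox -0.66. The 12 points fall into treated and untreated clusters and share their libraries and depth, so these coefficients describe the treatment contrast rather than a relation within groups.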

How the data were processed

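The RNA, amplified by SMARTer chemistry, was read in pairs of 150 bases. The authors deposited 1 table of read counts per Ensembl gene ID, not normalized. The submitters' processing notes name HISAT2, HISAT, TopHat2, HTSeq and build mm8, and strand and multiple-match settings were not given in the sources used here. Gene names, positions and exon lengths came from GENCODE M21 (GRCm38), which matched 46488 of 47069 IDs and may differ from the models counted. Groups and replicate numbers came from the labels. Counts were tested with edgeR 4.0.16 in R 4.3.3 (filterByExpr, TMM, robust quasi-likelihood fit of 4 group means over 12 libraries, 16157 genes, Benjamini-Hochberg adjusted p under 0.05). Each fold interval covers 95%, and CPM used TMM library sizes. DESeq2 1.42.0, other scalings and filters, and fits without single libraries were alternatives, and the code was tested on simulated data. A limit for a count of 0 was 3 reads, for counting error only, since PCR copies are not independent. Log2 CPM for correlations used a prior count of 2. Replicate numbers paired the treated LGR5+ and LGR5- libraries (same-number correlations of deviations 0.571, 0.217 and 0.304). In no other comparison did each library correlate best with its own number. Between treated and untreated LGR5- libraries the same-number values were 0.0546, 0.282 and 0.425. There, treated replicates 1 and 2 correlated more with another untreated number (0.168 and 0.307). The genes and lists were chosen with earlier results of these data known. Some listed genes are not reported here and were left out of list counts, sums and figures. Genes named outside the 9 were Hba-a2, Ppox, called list genes, defining markers and the 5 most and least correlated genes.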

Additional observations from a re-analysis of the deposited data

How the results depend on the processing

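The Hba-a1 log2 change stayed between 6.40 and 7.50 under all alternatives run in both populations. Of 239 alternative values for the 9 genes in the 5-FU comparisons, 211 kept direction and call, 8 lost a call (all Uros in LGR5- cells) and 20 changed sign, all of genes near 0 and not called. With library-size scaling these were Hmox1 in LGR5+ cells (-0.00063) and Alas2 (-0.0061) and Alad (0.0023) in LGR5- cells. Leaving out 1 library gave ranges of -0.0949 to 0.0864 for Alad and -0.181 to 0.236 for Hmox1 in LGR5+ cells. In LGR5- cells the ranges were -0.343 to 0.0734 for Alas1, -0.321 to 0.805 for Alas2, -0.185 to 0.105 for Alad, -0.187 to 0.322 for Cpox and -0.218 to 0.224 for Fech. With a replicate block, Cpox and Fech in LGR5- cells were at -0.029 and -0.0050, and the block changed no call of the 9 genes, including the treated LGR5+ against LGR5- comparison that it pairs. Of 24 heme and globin genes other than Hba-a1, 14 could be tested. Of these, 1 was called in LGR5+ cells (0 to 1 without 1 library), where 16.0% of all genes were called. In LGR5- cells, where 15.4% were, 2 were called (0 to 2 without 1 library), 1 with no filter, with library-size scaling or with only the libraries compared, and 0 without both LGR5- replicate 3 libraries, an alternative chosen after seeing the data. Over all genes, 2590 calls in LGR5+ cells became 4045 with only the libraries compared and 1373 to 2488 without 1 library, and 2489 in LGR5- cells became 1282 and 1562 to 3418. For treated LGR5+ against LGR5- cells, 0 calls became 79 by DESeq2 and 11 with no filter. The causes were not tested. Of the 9 genes, Alas2 in all groups (2 to 30 reads) and Hba-a1 in untreated cells (3 to 10 reads) had the fewest reads.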
